A study of Mus musculus with 36 samples.

Results

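The 12 RNA-seq samples described here are the primordial germ cell (PGC) samples of E13.5 fetuses, 6 from female and 6 from male gonads, of 36 samples in the series. They were taken by their labels for stage and sex, so that the effect of intrauterine hyperglycemia (IUHG) in E13.5 female PGCs (E13.5F) could be set against its effect in E13.5 male PGCs (E13.5M). The question was which genes and functions IUHG moved in the same direction in both sexes and which it moved in opposite directions.

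All 4 groups held 3 samples each and came from fetuses labelled wild type that carried an Oct4-EGFP transgene, in which Oct4 regulatory sequence drives EGFP in germ cells. The IUHG dams were given 120 mg/kg streptozotocin (STZ), a toxin of pancreatic beta cells, on day 3.5 of pregnancy and were kept if their blood glucose was above 14 mM on day 6.5. The labels name no STZ for the control dams, so the drug and the hyperglycemia cannot be told apart in these 4 groups. Each sample was a pool of EGFP-positive cells sorted from the gonads of 20 to 30 fetuses, with sex given by an Sry PCR or by the shape of the gonad. The labels do not say which litters or dams entered each pool, so the p-values below measure the spread between pooled samples. In bulk RNA, fewer cells of a type and less RNA per cell cannot be told apart.

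The samples held 3.44 to 7.74 Gb of aligned bases, computed from the deposited coverage and FPKM. E13.5F controls held 5.79, 5.26 and 3.44 Gb, E13.5F IUHG samples 4.88, 6.11 and 6.55 Gb, E13.5M controls 7.67, 7.43 and 6.89 Gb, and E13.5M IUHG samples 6.13, 7.74 and 7.29 Gb. Levels are in TPM, which counts transcripts after allowing for gene length and scales every sample to the same sum. The number of genes at 1 TPM or more was 14524 to 15036 in E13.5F controls, 14525 to 16533 in E13.5F IUHG samples and 13703 to 13933 in the 6 male samples. Read counts were not used here, so the counting error of single TPM values was not estimated.

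The labels for sex and cell type were checked first. The summed level of 4 Y-linked genes was 151, 183 and 167 TPM in male controls, 118, 120 and 116 TPM in male IUHG samples, and at most 0.0187 TPM in the 6 female samples. Xist, the transcript that silences the X chromosome, was low in all 12 samples, at 0.26 to 0.406 TPM in female controls, 0.738 to 1.03 TPM in female IUHG samples and 0.156 to 0.375 TPM in male PGCs. It therefore gave no measure of female cells in a male pool. The Y-linked sum was lower in the male IUHG samples, in which female-high genes rose, and the part of female cells in these results was not tested. The 6 germ cell markers (Ddx4, Dazl, Pou5f1, Dppa3, Dnd1 and Mael) were present in every sample. Their sum was 5200 to 5450 TPM in female controls and 5840 to 6520 TPM in female IUHG samples, and 8930 to 9610 TPM in male controls and 7830 to 8130 TPM in male IUHG samples, without overlap in either sex. Dppa3 made up most of the male sums, at 6660 to 7130 TPM in controls and 5980 to 6090 TPM with IUHG. In the female samples Dazl or Dppa3 was the most abundant. Of the 6 genes, 4 were down in males, 1 was down in females and 1 had a called interaction, against 14.6%, 1.49% and 3.03% of all genes.

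Markers of other gonadal cells were lower. The 5 Sertoli markers summed to 26.8 to 40.8 TPM in the male samples, with Ptgds the most abundant, to 2.25 to 3.77 TPM in female controls and to 0.363 to 0.862 TPM in female IUHG samples. The 7 interstitial and Leydig markers summed to 50.4, 33.5 and 48.4 TPM in male controls and to 2.18, 5.45 and 1.37 TPM in male IUHG samples. Their most abundant member was Insl3, a Leydig hormone, at 23.9, 11.8 and 21.2 TPM in male controls and 0, 1.05 and 0 TPM in male IUHG samples. In the female samples these markers summed to 1.8 to 8.06 TPM. Globin and other blood markers differed between single samples and not by group, from 1.2 to 65.7 TPM in female and from 1.07 to 79.2 TPM in male PGCs. The 5 pregranulosa markers summed to 14.8, 19 and 17 TPM in male controls and 10.2, 9.49 and 8.64 TPM in male IUHG samples, with Rspo1 the most abundant, and to 11.2 to 20.1 TPM in the female samples. The 4 general gonadal somatic markers summed to 5.25 to 7.63 TPM in male controls, 4.5 to 5.02 TPM in male IUHG samples and 2.14 to 6.16 TPM in the female samples. Of the 5 endothelial markers, Egfl7 made up most of the sum, which was 15.6 to 18.4 TPM in female controls, 9.83 to 14.5 TPM in female IUHG samples and 22.4 to 29.6 TPM in the male samples. Kdr, Cdh5, Tie1 and Emcn did not reach the level at which genes were tested.

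The female samples varied more than the male samples. Across genes, the standard deviation within a group had a median of 0.221 in E13.5F controls and 0.438 in E13.5F IUHG samples on the log2(TPM + 1) scale, against 0.123 and 0.116 in the E13.5M groups. E13.5F IUHG replicate 3 stood apart, with a median absolute deviation of 0.64 from the other samples of its group, against 0.11 to 0.37 for the other 11 samples. Its mean correlation with its group was 0.932, and 16533 genes reached 1 TPM in it. The counts are given below with and without this sample.

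In the fetal ovary, germ cells leave mitosis and enter meiosis when retinoic acid and BMP signals induce Stra8, whose protein acts with MEIOSIN to switch on the genes of meiotic prophase. In the fetal testis, retinoic acid is degraded, NANOS2 holds the male program in place and the cells stop cycling and enter mitotic arrest. Both sexes meanwhile shut down the pluripotency genes that PGCs carry from the early embryo.

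IUHG effects differed between the sexes at E13.5. Autosomal genes with a mean of at least 1 TPM in any of the 4 groups were tested, 16642 in all, on the log2(TPM + 1) scale. The interaction, which is the IUHG effect in females minus the IUHG effect in males, was called for 504 genes at an adjusted p under 0.01 (3.03% of genes tested), 199 higher and 305 lower in females than in males. Within the sexes, at an adjusted p under 0.05, 380 genes changed in E13.5F (2.29%), 132 up (0.795%) and 248 down (1.49%), and 4486 in E13.5M (27.1%), 2063 up (12.4%) and 2423 down (14.6%). The balance in females depended on the setting, from 1 up and 16 down without female control replicate 1 or 3 to 2332 up and 1482 down in the 12-sample fit. The male samples showed the smaller spread, and the lower count in females does not show that fewer genes moved there. The interaction fit took 1 spread per gene over all 4 groups, so the spreads of both sexes were pooled in it. With weights per group, the interaction was called for 421 genes. Over 16540 genes with a value in both sexes, the effects correlated weakly, with Pearson's r of 0.09 and Spearman's rho of 0.08, as a description, since genes are not independent replicates.

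Genes were called opposite if the interaction was called and both sexes changed in opposite directions, and shared if both sexes changed in the same direction and the interaction was not called. There were 59 opposite genes (0.355% of genes tested), 49 down in females and up in males and 10 up in females and down in males. There were 94 shared genes (0.565%), 50 up and 44 down. In total 170 genes were called in both sexes, which is 44.7% of the female and 3.79% of the male calls, and 111 of them had the same sign. Without E13.5F IUHG replicate 3 the interaction was called for 1531 genes and the female effect for 1602. The opposite class then held 246 genes, with all 59 among them, 166 down and 80 up in females, and the shared class 336. Leaving out any 1 of the 3 female controls lowered the interaction count to 269 to 328, the female count to 17 to 20, the opposite count to 8 or 9 and the shared count to 0 or 1. Leaving out any 1 of the 6 male samples lowered the interaction count to 176 to 209 and the opposite count to 35 to 45.

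**Figure D1:**
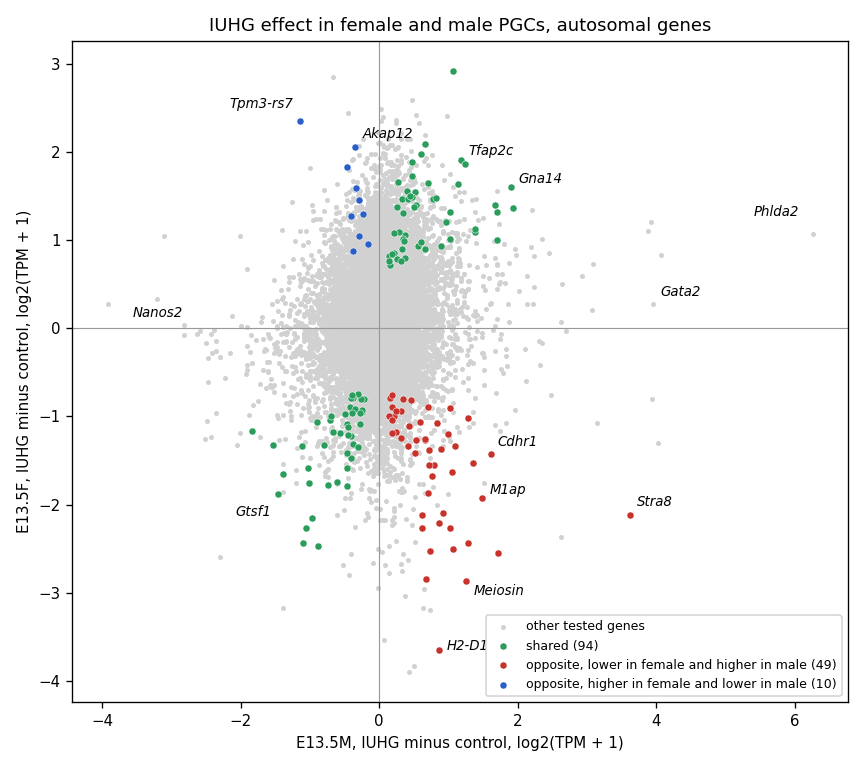
IUHG effect in E13.5M (x axis) against E13.5F (y axis), each as IUHG minus control on the log2(TPM + 1) scale, for the tested autosomal genes, 1 point a gene. Red points are the 49 genes down in females and up in males, blue points the 10 genes up in females and down in males, and green points the 94 shared genes. Stra8, at -2.12 in females and 3.63 in males, lies farthest to the right among the red points.

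The female samples also carried a shift that scaling removed. The median gene changed by 0.14 in females and by 0 in males on the log2 scale, and the median interaction was 0.17. After median-of-ratios scaling these medians were 0, 0.01 and -0.01. Relative to its median, the Stra8 change in females was -2.25 and its interaction -5.91, and the Tcl1 change in females was 0.91 and its interaction 1.18. For changes on the log2(TPM + 1) scale, the fold of a gene near or below 1 TPM is understated.

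The 49 genes down in females and up in males included the switch of meiotic entry. Stra8 (ENSMUSG00000029848, chromosome 6, 34897098 to 34916279, mm39 as listed) was at 1936, 1718 and 1841 TPM in female controls and at 466, 491 and 326 TPM in female IUHG samples. In males it was at 8.73, 13 and 11.7 TPM in controls and 175, 138 and 134 TPM in IUHG samples. All 4 groups stood apart without overlap, in the order female control, female IUHG, male IUHG, male control. The log2 change was -2.12 in females (adjusted p = 0.00205) and 3.63 in males (adjusted p = 1.82e-06), with an interaction of -5.75 (standard error 0.25, adjusted p = 1.3e-07). Meiosin (ENSMUSG00000085601, chromosome 7, 18832971 to 18852293), the partner of STRA8, was at 204, 168 and 217 TPM in female controls and 18.1, 26.1 and 36.5 TPM in female IUHG samples. Its male values were 3.13, 2.62 and 3.18 TPM in controls and 9.69, 8.39 and 7.52 TPM with IUHG. The groups again did not overlap, and the interaction was -4.13 (adjusted p = 1.09e-05), made of -2.87 in females and 1.26 in males.

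The promoters of these genes were read for the motifs of factors that act on meiotic genes. That the genes moved together follows from the definition of the class. RefSeq promoters (250 bases before to 50 after the start, build GRCm38.p6) were matched for 35 of the 49 genes, with 46 promoters. The motif CNCCTCAG, known from sites that STRA8 and MEIOSIN bind, was present on either strand in the promoters of 12 of these 35 genes (34.3%). It was present in 9.12% of all 27018 genes with a promoter, whether or not they were tested here. Among genes up in females and down in males, 0 of 5 matched genes held it. In the shared classes it was present in 1 of 33 genes that were up (3.03%) and 8 of 35 that were down (22.9%). The E2F6 site GCGGGA was present in 42.9% of the 35 genes and 22.1% of all genes, and the E-box CACGTG in 8.57% and 8.09%. Neither was particular to this class: the E2F6 site was present in 45.5% of the shared genes that were up and 28.6% of those that were down, and in 3 of the 5 matched genes up in females and down in males, and the E-box in 9.09%, 20% and 2 of 5. A match in these letters is a description and no test was made. Meiosin (RefSeq symbol Bhmg1), M1ap and Prdm9 are shown because they were named or listed for meiosis and held the motif, which is in capitals. It was also found for BC049762, Ccdc122, Cerox1, H2-D1, Lypd11, Pttg1ip, Sec22b, Tmem59 and Urah, none of them listed for meiosis. Stra8, Majin, Syce1 and Dmrtc2 were not among the 12 genes that held it, so the motif did not mark the meiotic genes of this class. The coordinates are chr7:19118295-19118594, minus strand, for Meiosin, chr6:82946672-82946971, plus strand, for M1ap, and chr17:15564305-15564604, minus strand, for the Prdm9 promoter that held 2 motifs, the first of which overlapped an E2F6 site.
Meiosin: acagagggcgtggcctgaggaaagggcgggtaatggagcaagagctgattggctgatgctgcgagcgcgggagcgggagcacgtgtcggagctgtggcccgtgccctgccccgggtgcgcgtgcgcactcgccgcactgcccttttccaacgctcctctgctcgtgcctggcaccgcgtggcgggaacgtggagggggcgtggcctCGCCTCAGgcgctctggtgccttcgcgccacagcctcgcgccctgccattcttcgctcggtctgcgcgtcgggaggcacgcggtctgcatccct
M1ap: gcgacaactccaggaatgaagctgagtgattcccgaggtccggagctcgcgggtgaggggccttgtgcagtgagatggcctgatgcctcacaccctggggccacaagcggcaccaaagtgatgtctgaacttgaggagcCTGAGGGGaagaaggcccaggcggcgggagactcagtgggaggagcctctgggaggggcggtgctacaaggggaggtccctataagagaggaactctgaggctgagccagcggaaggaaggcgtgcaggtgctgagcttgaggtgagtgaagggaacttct
Prdm9: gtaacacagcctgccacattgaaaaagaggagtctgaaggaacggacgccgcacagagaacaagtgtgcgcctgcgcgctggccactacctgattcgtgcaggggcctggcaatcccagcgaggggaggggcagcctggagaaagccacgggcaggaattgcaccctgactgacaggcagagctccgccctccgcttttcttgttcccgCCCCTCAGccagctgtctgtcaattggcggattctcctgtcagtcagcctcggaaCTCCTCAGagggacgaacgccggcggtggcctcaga

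Of the prophase lists, 4 genes were also down in females and up in males. M1ap (ENSMUSG00000030041), a meiotic gene required for crossover formation, was at 563, 477 and 576 TPM in female controls and 108, 163 and 157 TPM with IUHG. In males it was at 12.8, 11.2 and 14.2 TPM and 37.3, 36.3 and 38.7 TPM. The female groups lay far above both male groups, and the interaction was -3.42 (adjusted p = 3.87e-06). Majin (ENSMUSG00000024786), which anchors meiotic telomeres to the nuclear envelope, was at 75.9, 70.0 and 77.4 TPM in female controls and 16.3, 11 and 12 TPM with IUHG. It was at 0.797, 0.877 and 0.602 TPM in male controls and 4.4, 2.58 and 3.09 TPM with IUHG. Its interaction was -3.73 (adjusted p = 1.09e-05), and its groups did not overlap. Prdm9, the histone methyltransferase that places recombination hotspots, changed by -2.26 in females and 0.62 in males. Syce1, a part of the central element of the synaptonemal complex, changed by -1.11 and 0.43. The oocyte list contributed Dmrtc2, a DM domain gene of meiotic germ cells, at -2.84 and 0.68.

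**Figure D2:**
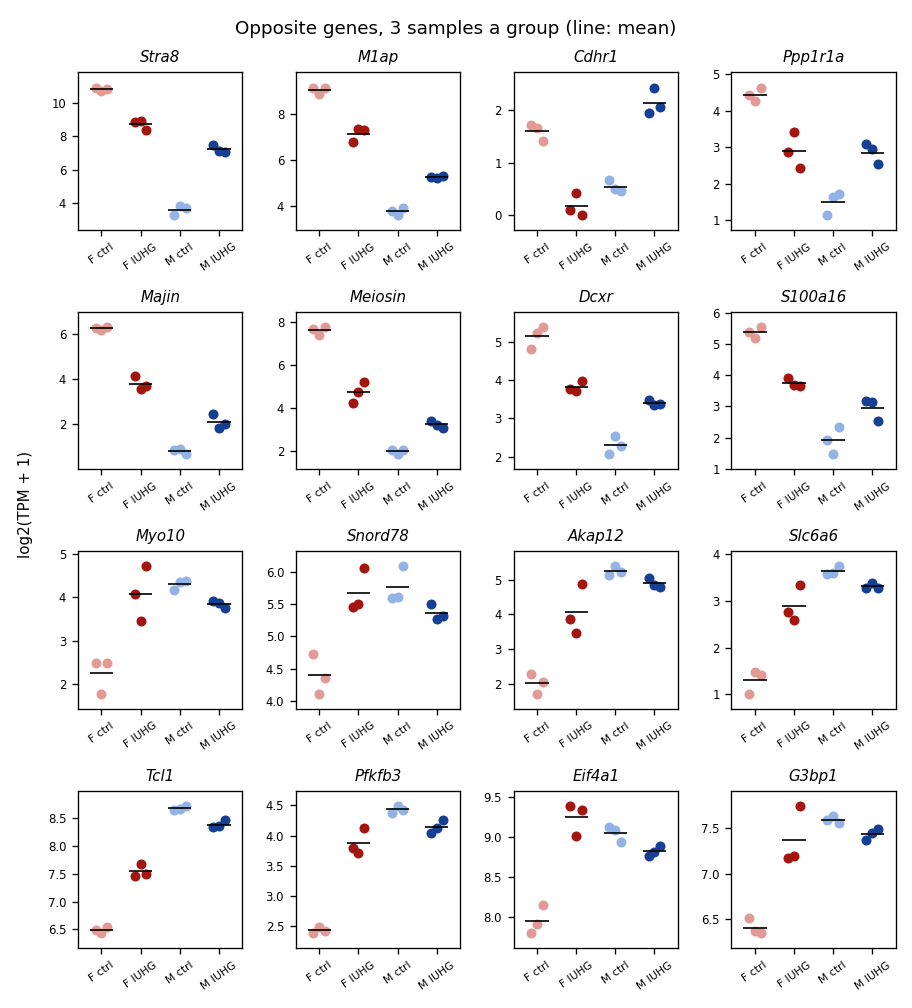
Level on the log2(TPM + 1) scale (y axis) of 16 opposite genes in each of the 12 samples, with 3 points a group and a line at the group mean. In the upper 8 panels, from Stra8 to S100a16, the female groups fell and the male groups rose with IUHG, and in the lower 8, from Myo10 to G3bp1, the female groups rose and the male groups fell.

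Opposite genes outside meiosis had other roles. Cdhr1 (ENSMUSG00000021803), a cadherin known from photoreceptors, was at 2.31, 2.19 and 1.68 TPM in female controls and 0.0681, 0.344 and 0 TPM with IUHG. In males it was at 0.587, 0.412 and 0.376 TPM and 2.85, 4.42 and 3.2 TPM, so that the order of the sexes turned. The level of Ppp1r1a, an inhibitor of protein phosphatase, fell from a mean of 20.8 to 6.78 TPM in females and rose from 1.87 to 6.33 TPM in males. Dcxr, an enzyme of xylulose metabolism, changed by -1.33 in females and 1.1 in males, and the calcium-binding S100a16 by -1.63 and 1.05. Ccne2, a cyclin of S phase entry, changed by -1.67 and 0.76. For all 5 genes the control and IUHG samples did not overlap in either sex, as for all 49 genes of their class. Of the 16044 genes with neither an interaction call nor a shared change, 2036 did not overlap in either sex. No overlap was part of the rule that named Cdhr1, Ppp1r1a, Dcxr and S100a16.

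Of the class I major histocompatibility genes, H2-D1 and H2-K1 were opposite. H2-D1 was at 113, 110.2 and 118 TPM in female controls and 7.07, 6.69 and 11.3 TPM with IUHG. Male values were 1.55, 1.73 and 0.622 TPM in controls and 3.99, 2.63 and 2.81 TPM with IUHG. Its interaction was -4.52 (adjusted p = 1.09e-05), and that of H2-K1 was -3.07 (adjusted p = 2.87e-05). These genes have near-identical relatives, so their levels are uncertain: the authors' methods keep uniquely mapped reads, and reads that fit several relatives would then be missing from the values. The antigen presentation list held 8 tested members, of which 3 were down in females (1.49% of all genes) and 2 were opposite (0.355% of all genes).

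The 10 genes up in females and down in males all changed less in males than in females, as did 45 of the 49 genes of the other class. The female samples had the larger spread, so that a female call needed a larger change. In these classes the smallest called change was 0.76 in size in females and 0.15 in males. The change was also larger in females for 42 of the 50 shared genes that were up and 42 of the 44 that were down. Tcl1 (ENSMUSG00000041359), an AKT coactivator and a member of the pluripotency list, was at 88.8, 85.5 and 92.4 TPM in female controls and 175, 202 and 179 TPM with IUHG. In males it was at 399, 404 and 420.0 TPM in controls and 321, 325 and 351 TPM with IUHG. The groups did not overlap, and the changes were 1.05 in females (adjusted p = 0.0162) and -0.29 in males (adjusted p = 0.00209), with an interaction of 1.34 (adjusted p = 0.000114). Pfkfb3 (ENSMUSG00000026773), whose product makes an activator of glycolysis, was at 4.24, 4.62 and 4.38 TPM in female controls and 13, 12.2 and 16.498 TPM with IUHG. It was at 19.8, 21.5 and 20.6 TPM in male controls and 15.5, 16.497 and 18.1 TPM with IUHG. Its interaction was 1.74 (adjusted p = 0.000548). Eif4a1, the RNA helicase of translation initiation, rose from a mean of 248 to 612 TPM in females and fell from 530.1 to 452 TPM in males.

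Other members of this direction were Myo10, a myosin of filopodia, with 1.83 in females and -0.46 in males, and Akap12, a kinase anchor, with 2.06 and -0.34. Slc6a6, the taurine transporter, changed by 1.59 and -0.33, and G3bp1, a nucleator of stress granules, by 0.96 and -0.16. Snord78, a small nucleolar RNA made from the introns of a longer transcript, changed by 1.27 and -0.40, and reads of its host cannot be told apart from its own. Of the 10 genes, 1 changed over 2-fold in both sexes, the tropomyosin copy Tpm3-rs7, which was chosen after its values were seen and whose level is uncertain because its sequence resembles that of its parent gene. Male changes in this class ran from 0.16 to 1.14 in size, against 0.15 to 3.63 in the other class. There 13 of the 49 genes changed over 2-fold in both sexes. Among the 8 genes named by rule as up in females and down in males, 2 kept the interaction call in all 23 other settings. Of the 8 named genes that were down in females and up in males, 7 kept it, with 22 settings for Cdhr1. The calls within the sexes held less well: 0 of the 8 genes up in females kept the female call and 0 the male call in all 17 settings that apply. In the other class 3 and 7 of the 8 kept them, with 16 settings for Cdhr1.

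The levels of the sexes showed a common pattern in these classes. In control PGCs all 49 genes that were down in females and up in males had the higher mean in females, and all 10 genes of the other class had the higher mean in males. Over all 16642 genes, 60.3% were higher in female and 39.3% in male controls. With IUHG the difference between the sexes became smaller for 46 of the 49 and for all 10 genes, and for 48.1% of all genes. The interaction that chose the genes is the change in this difference, so a smaller difference followed from the selection, unless the order of the sexes turned. For Stra8 it went from 7.25 in controls to 1.51 with IUHG on the log2 scale, for Meiosin from 5.63 to 1.5, and for Tcl1 from -2.19 to -0.84. The order of the sexes turned for 7 of the 49 genes, Cdhr1 among them, and for 5 of the 10, among them Myo10, Snord78 and Eif4a1, against 23.3% of all genes. These values come from the samples that chose the genes and were given no test. The share of the female level that male PGCs reached differed from gene to gene. The mean in male IUHG samples was 8.12% of the female control mean for Stra8, 4.35% for Meiosin, 6.95% for M1ap, 29.1% for Gata2, 81.6% for Phlda2 and 169% for Cdhr1.

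Among the function lists, the interaction was concentrated in meiosis. The 4 meiotic lists together held 61 tested genes, and the interaction was called for 30 of them (49.2%, against 3.03% of all genes), all 30 lower in females. Some of these genes were very low in males. The male IUHG mean was 0.371% of the female control mean for Spata22, 0.523% for Rad21l and 2.64% for Mei1. Genes so low in males could hardly fall there, and their interaction restates the female fall. Of the 61 genes, 24 were down in females, whereas 20 were up and 9 down in males, and 6 were opposite. Over all genes 1.49% were down in females, and 12.4% were up and 14.6% down in males. Of the 20 tested genes of meiotic entry and BMP or retinoic acid response, 13 were up in males and 2 down in females, Stra8 and Meiosin. Of the 24 recombination genes, 12 were down in females, and in males 4 were up and 6 down. The synaptonemal list had 5 of 9 members down in females and the cohesin and telomere list 5 of 9. These lists were chosen with results of these data known, so that their counts are descriptions.

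**Figure D3:**
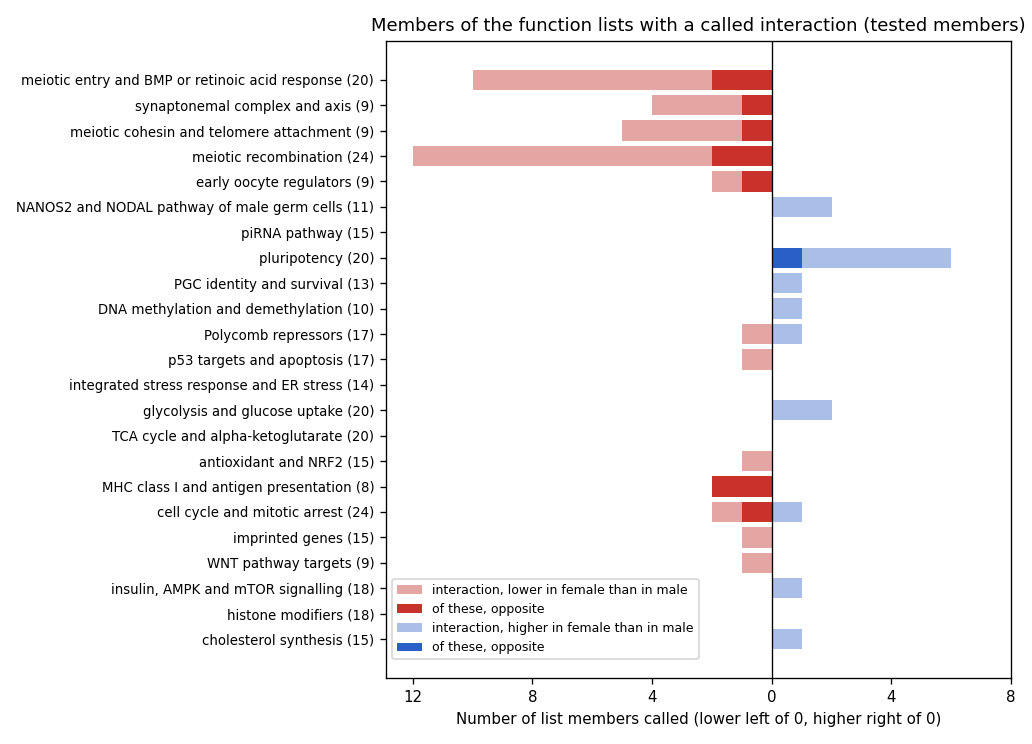
Number of members of each of the 23 function lists with a called interaction (x axis), drawn to the left of 0 if lower in females than in males and to the right if higher, with the number of tested members after each name. Darker bars are opposite genes. The recombination list reaches 12 and the meiotic entry list 10 to the left, and the pluripotency list reaches 6 to the right.

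Of the 20 tested genes of the meiotic entry list, 13 were up in males, against 12.4% of all genes. Among them, 6 with a called interaction are known as BMP response genes and had no female call. BMP response genes were not counted as a list of their own. Gata2 (ENSMUSG00000015053), which BMP signals induce in germ cells of the fetal ovary, was at 1.96, 3.26 and 1.93 TPM in male controls and 52.7, 47.6 and 51.8 TPM in male IUHG samples. Female values were 169, 163 and 192 TPM in controls and 168, 193 and 286 TPM with IUHG. The male groups stood far apart and the female groups overlapped. The male change was 3.96 (adjusted p = 1.29e-06), the female change 0.27 (adjusted p = 0.463) and the interaction -3.68 (adjusted p = 1.09e-05). Id1, a direct BMP target, rose from a mean of 18.8 to 62.8 TPM in males, with an interaction of -2.43. Male changes were 2.31 for Msx1, 2.93 for Msx2, 1.49 for Id2 and 0.98 for Id3. Rec8, a meiotic cohesin that retinoic acid induces without STRA8, changed by 1.76 in males, and Meioc, which holds cells in meiotic prophase, by 1.67. Sct, the hormone secretin, had the lowest interaction p of the named genes with only a male rise, and went from 2.59, 3.37 and 4.33 TPM to 66.6, 64.3 and 67.8 TPM in males.

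Other prophase genes were down in females with no called rise in males. Sycp3 (ENSMUSG00000020059), of the lateral element of the synaptonemal complex, was at 1480.0, 1596 and 1257 TPM in female controls and 340.1, 342 and 324 TPM with IUHG. In males it was at 115, 123 and 124 TPM in controls and 103, 107 and 111 TPM with IUHG. It was down in both sexes, by -2.10 and -0.18, with an interaction of -1.92 (adjusted p = 1.09e-05), though its male call was lost in 7 of 17 settings. Rnf212 and Zcwpw1, of recombination, showed the same form, with female changes of -2.12 and -1.05 and male changes of -0.60 and -0.19. Their male calls were lost in 6 and 4 of 17 settings. Female falls without a male call were -1.97 for Tex12, -2.47 for Syce3, -2.94 for Rad21l, -2 for Terb1 and -1.54 for Kash5. Spata22, a partner of MEIOB at single-stranded DNA, was at 12.8, 10.3 and 17.5 TPM in female controls and 0, 0.895 and 0 TPM with IUHG, and was at or near 0 in males. Meiob, Mei1, Iho1, Dmc1, Hsf2bp, Msh5 and Cntd1 were also down in females, by 1.07 to 2.75 in size, with male changes of -0.18 to 0.67 that were not called. The male rise of Meiob was called in 7 of 17 other settings and that of Mei1 in 1. Of the interaction calls of the genes above, those of Cntd1 and Zcwpw1 were the least stable, lost in 13 of 23 other settings. The interaction calls of Msh5, Rnf212 and Terb1 were lost in 12, 11 and 10. Figla, a regulator of oocyte genes, changed by -3.17 in females.

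Among genes with a female fall and no male call, H2-Ab1, Tex101 and Lypd4 had the lowest interaction p. H2-Ab1, of the class II histocompatibility complex, was at 30.4, 27.9 and 27.8 TPM in female controls and 0.47, 1.28 and 1.35 TPM with IUHG. Tex101, which codes for a surface protein of germ cells, was at 936, 972 and 974 TPM and 170.2, 176 and 110.4 TPM. Lypd4, of the same protein family, went from a mean of 55.3 to 3.08 TPM. On chromosome 7, Tex101 (24367432 to 24371475), Lypd4 (24564045 to 24569366) and the opposite gene Dmrtc2 (24569482 to 24577076) lay close together, a feature noticed after the values were seen. Lypd4 and Dmrtc2 start next to each other and run in opposite directions.

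Nanos2 (ENSMUSG00000051965), of the male program, was at 28.2, 31.9 and 31.3 TPM in male controls and 5.44, 2.78 and 4.33 TPM in male IUHG samples. In females it was at or near 0 in all 6 samples. The male change was -2.63 (adjusted p = 2.14e-05) and the interaction 2.57 (adjusted p = 0.000442). With almost no Nanos2 in females that could fall, the interaction restates the male fall. Dnd1, which codes for an RNA-binding partner of NANOS2, fell from a mean of 562 to 342 TPM in males, with a female change of 0.65 that was not called (adjusted p = 0.0679). These were the 2 interaction calls among 11 tested genes of the NANOS2 and NODAL list, in which 4 were up and 4 down in males and 1 was up in females. Over all genes 3.03% had an interaction, 12.4% were up and 14.6% down in males, and 0.795% were up in females. Spp1, the secreted osteopontin, and the E-box factor Usf1 were the other male falls with the lowest interaction p, at -1.91 and -1.03. The interstitial and Leydig markers fell in the same male samples, 5 of 5 tested, against 14.6% of all genes. Of these 5 markers, 4 had a called interaction (80%, against 3.03% of all genes), all higher in females. The part of these markers in these results was not tested.

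Of 20 tested pluripotency genes, 10 were up in females, 6 were up and 4 down in males, and 6 had an interaction, all higher in females. Over all genes these shares were 0.795% up in females, 12.4% up and 14.6% down in males, and 3.03% with an interaction. Nanog (ENSMUSG00000012396) was at 17.1, 15.1 and 26.9 TPM in female controls and 54.4, 65 and 59.5 TPM with IUHG. Its male values were 44.5, 50.4 and 50.6 TPM in controls and 56.3, 53.2 and 54.3 TPM with IUHG. The female change was 1.59 (adjusted p = 0.0191), and the interaction 1.42 (adjusted p = 0.00473). The interaction call was lost in 11 of 23 other settings and the female call in 7 of 17. Female IUHG levels thus lay near those of male PGCs. Sox2 and L1td1 were up in both sexes with the larger change in females, at 1.42 against 0.26 and 2.33 against 0.57, though the interaction call was lost in 6 of 23 settings for Sox2 and in 15 for L1td1. Utf1 changed by 0.90 in females and -0.01 in males, and Dppa4 by 0.58, not called, and -0.59. Phlda2 (ENSMUSG00000010760), an imprinted gene that restrains placental growth, had the largest male rise of the genes named. It was at 3.97, 6.08 and 7.23 TPM in male controls and 521, 486 and 510.3 TPM with IUHG. In females it was at 579.9, 679 and 600.5 TPM and 1552, 1402 and 998 TPM. It was up in both sexes, by 1.07 and 6.26, with an interaction of -5.19 (adjusted p = 4.93e-07). Its female call was lost in 9 of 17 settings, as was that of Utf1.

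The metabolic and growth lists held 0 to 3 interaction calls each. Stk11, the kinase LKB1 that activates AMPK, was at 9.31, 13 and 8.95 TPM in female controls and 46.7, 45.3 and 65.1 TPM with IUHG. Male values were 41.3, 38.2 and 40.0 TPM in controls and 38.5, 37.8 and 42 TPM with IUHG, with overlap. In the glycolysis list 2 of 20 genes had an interaction (10%, against 3.03% of all genes), Pgam1 with 1.09 in females and -0.05 in males and Eno1 with 1.00 and -0.01. In males 8 glycolysis genes were up and 1 down, against 12.4% and 14.6% of all genes. The cell cycle list had an interaction for 3 of 24 genes and the list of insulin, AMPK and mTOR signalling for 1 of 18, Stk11. Gar1, a protein of small nucleolar ribonucleoproteins, completed the 3 female rises with the lowest interaction p, at 1.36. Ccnb1, the cyclin of mitosis, rose from a mean of 317 to 713 TPM in females, while Ccnd1 changed by -0.76 in females, not called, and 0.61 in males. Single interaction calls stood among 10 genes of DNA methylation (Dnmt3a, 1.42), 15 of cholesterol synthesis (Srebf2, 1.54), 15 antioxidant genes (Sod2, -1.05) and 17 p53 targets (Perp, -1.23), where 3.03% would be under 1 gene a list. The Polycomb list had E2f6 at 1.71 and Phf19 at -1.31. Of 23 other settings, the interaction call was lost in 16 for Dnmt3a, 12 for Ccnb1, 11 for Perp, 6 for Sod2 and Phf19, 5 for Ccnd1, 2 for E2f6 and 0 for Srebf2. Of 14 stress response, 20 TCA cycle, 18 histone modifier and 15 piRNA genes tested, 0 had a called interaction in limma. At an unadjusted p under 0.05 the counts were 3, 5, 10 and 2, against 4588 of all 16642 genes.

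The 94 shared genes included members of several lists. Tfap2c (ENSMUSG00000028640), a regulator of PGC specification, was at 28.2, 25.2 and 30.0 TPM in female controls and 96.2, 86.5 and 147 TPM with IUHG. Male values were 14.2, 16.3 and 14.7 TPM in controls and 35, 35.2 and 36.4 TPM with IUHG. IUHG samples lay above controls in both sexes, by 1.91 in females (adjusted p = 0.00717) and 1.19 in males (adjusted p = 1.5e-05), and the interaction was 0.72 (adjusted p = 0.0833). Plagl1, an imprinted transcription factor, changed by 1.86 and 1.24, and Gna14, a G protein subunit, by 1.60 and 1.91. Defb42, a defensin, changed by 1.40 and 1.68, and Psors1c2 by 1.63 and 1.14. The pluripotency genes Dppa2, Klf5 and Gdf3 were shared and up, as were Foxh1, the DNA-binding partner of NODAL signals, the cyclin Ccna2 (0.90 and 0.33) and Trp53. In the metabolic lists Mdh2, Got1 and Txnrd1 were shared and up. An interaction that was not called does not show that the changes were equal: for Klf5 they were 1.66 and 0.27, and its interaction was called in 7 of 23 other settings. Female calls of shared genes were less stable than male calls. Of the 5 genes named by rule in each direction, 0 kept the female call in all 17 settings, and all 5 kept the male call. The female call was lost in 10 of 17 settings for Gdf3, in 9 for Ccna2 and Mdh2 and in 7 for Dppa2, Foxh1 and Got1. The male call was lost in 7 of 17 settings for Mdh2, in 6 for Got1, in 5 for Dppa2 and in 3 for Klf5.

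Among shared falls, the piRNA list had 2 of 15 genes, Gtsf1 and Mael, against 0.264% of all genes. Gtsf1 (ENSMUSG00000022487), a cofactor of PIWI proteins, was at 91.9, 94.6 and 104 TPM in female controls and 34, 36.4 and 13.3 TPM with IUHG. In males it was at 48.7, 43.8 and 42.7 TPM in controls and 13.521, 17.3 and 16.6 TPM with IUHG. The groups did not overlap in either sex, and E13.5F IUHG replicate 3 was the lowest female value. Mael changed by -1.06 in females and -0.90 in males. In males 10 of the 15 piRNA genes were down, against 14.6% of all genes. Anxa2, an annexin of the cell cortex, changed by -1.17 and -1.83, Klc3, a kinesin light chain, by -1.32 and -1.53, and Sec1, a fucosyltransferase gene, by -1.34 and -1.11.

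**Figure D4:**
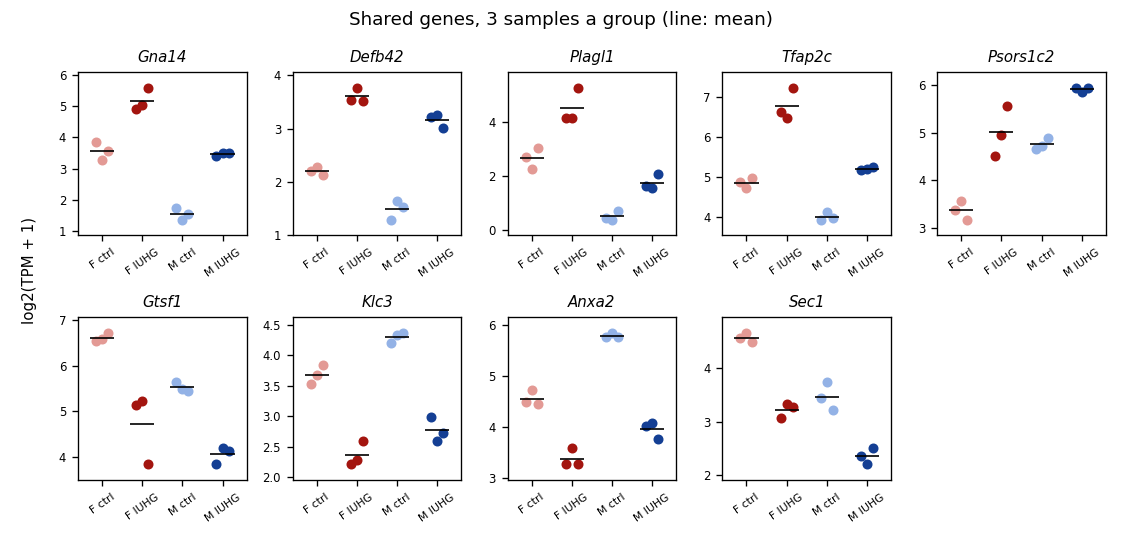
Level on the log2(TPM + 1) scale (y axis) of 9 shared genes in each of the 12 samples, with 3 points a group and a line at the group mean. IUHG samples lie above controls in both sexes for the 5 genes of the upper row and below them for the 4 of the lower row, without overlap.

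Samples that were not used to choose the genes gave a view of their sex preference and of later effects. In E16.5 control PGCs, 38 of the 49 genes down in females and up in males were higher in females and 5 higher in males, at an adjusted p under 0.05. Over all genes, 32.8% were higher in females and 39.3% in males. Of the 10 genes of the other class, 2 were higher in females and 5 in males. Stra8 was higher in E16.5 female controls by 2.02 (adjusted p = 1.62e-05), Meiosin by 3.95 (adjusted p = 1.61e-07) and M1ap by 4.29 (adjusted p = 7e-08).

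At E16.5 the interaction was called for 4 of the 59 opposite genes, against 1.18% of 23045 genes. It had the direction seen at E13.5 for 1 gene, Tpm3-rs7 (1.89, adjusted p = 0.00926). Leaving out any 1 of the E16.5 male samples lowered this count to 0. So did leaving out E16.5F control replicate 2 or 3 or E16.5F IUHG replicate 2. The call was in the other direction for 3, Cd47 (0.87), H2-D1 (1.12) and Urah (2.75), whose names, like those of the genes in the next sentences, were chosen after their values were seen. The unadjusted limma p at E16.5 was under 0.05 for 21 of the 49 and 3 of the 10 genes, against 19.4% of all genes. These counts take either direction, so they do not show that the E13.5 direction lasted. The Stra8 interaction at E16.5 was -0.23 (adjusted p = 0.68). In the separate samples of whole female gonads at E13.5, 46 of the 49 genes were tested, and 4 were lower with IUHG, Gm8399, H2-D1, Lypd11 and Tmed3, against 1.1% of all genes. Of the 46 changes, 39 were below 0, against 48.2% of all genes in the gonads. Without single gonad samples, 0 to 2 opposite genes were called lower. The Stra8 change in these gonads was 0 (adjusted p = 0.996). Whole gonads also hold somatic cells, so that levels there depend on the share of germ cells too. The paper presents them with a model made by mating wild-type ICR mice, not with the Oct4-EGFP cross. The gonads are therefore not a repeat of the PGC comparison. Of 43 tested shared genes that were down, 1 was lower in IUHG gonads (background 1.1%). Of 44 shared genes that were up, 1 was lower and 10 were higher in IUHG gonads (background 1.55%), among them Tfap2c (1.19, adjusted p = 0.0126), Dppa2 (1.21) and Foxh1 (1.42).

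The levels across stages placed the E13.5 values in order. Stra8 was at a mean of 12.3 TPM in E12.5 control and 11.9 TPM in E12.5 IUHG PGCs, whose sex was not determined, near the male control mean of 11.1 TPM at E13.5. At E16.5 it was at 145 TPM in female controls and 169 TPM in female IUHG samples. Meiosin was at a mean of 196 TPM at E13.5 in female controls and at 235 TPM at E16.5, while with IUHG it was at 26.9 TPM and then at 429 TPM. For Phlda2, E12.5 controls were at 307 TPM and E12.5 IUHG PGCs at 604 TPM, so that the male controls of E13.5, at 5.76 TPM, were the low group. Tcl1 was at 394 TPM at E12.5 and Tfap2c at 62.5 TPM in controls. Differences between stages were not tested, and each stage had its own pools.

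**Figure D5:**
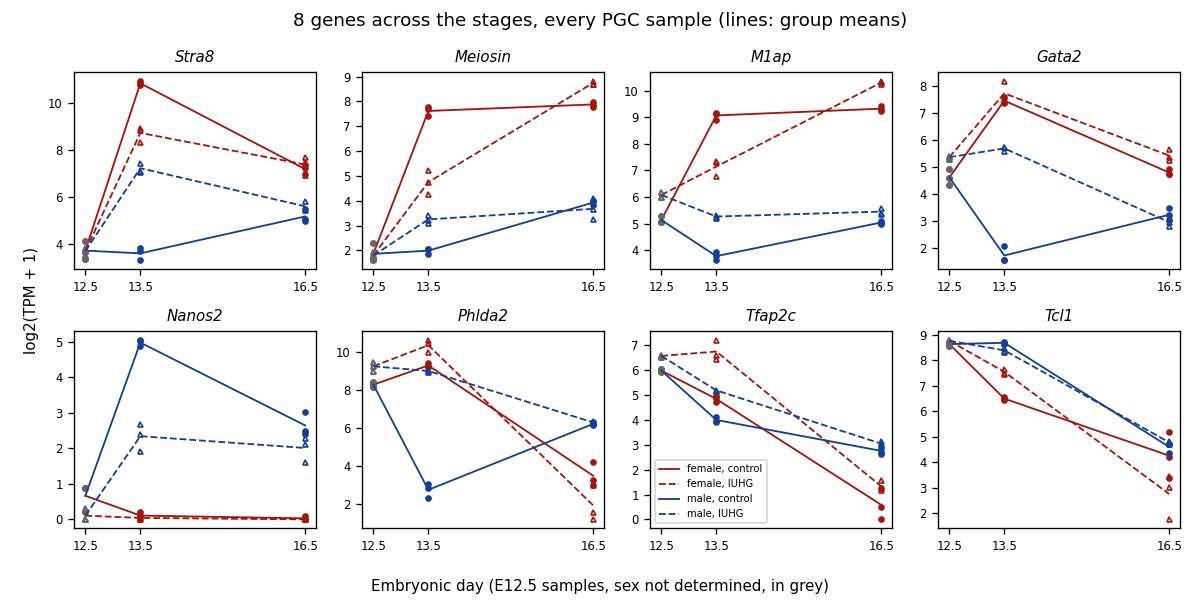
Level on the log2(TPM + 1) scale (y axis) of 8 genes against embryonic day (x axis) in every PGC sample, with circles and full lines for control, open triangles and broken lines for IUHG, red for female and blue for male. E12.5 samples, whose sex was not determined, are grey and start both lines. At E13.5 Stra8, Meiosin and M1ap lie lower with IUHG in females and higher in males, and at E16.5 the female IUHG means of Meiosin and M1ap lie above those of controls.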

How the data were processed

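RNA from pooled, sorted PGCs was sequenced by the authors, whose processing notes name FastQC, Trim Galore, STAR, featureCounts and build mm39 without versions. TPM values were computed by the authors for each sample and deposited per gene, in tables with the columns of StringTie, a tool that the study's methods name for FPKM. FPKM values deposited in the same tables served as an alternative. Coverage deposited beside them was divided by FPKM to estimate aligned bases per sample. The deposited gonad tables list positions of another build than the PGC tables. Here TPM was summed over rows of a gene ID, 1 ID was kept per symbol (233 left out), and log2(TPM + 1) was fitted with limma 3.58.1 in R 4.3.3 (lmFit, eBayes with trend, two-sided). P-values were adjusted over all genes tested by the method of Benjamini and Hochberg. The interaction used 12 samples with 8 residual degrees of freedom, and each sex effect used its own 6. In a self-test of the fit on simulated data, with 200 of 16642 genes changed by 2 on the log2 scale in E13.5F IUHG samples, the interaction was called for 121 of these and 2 other genes. Alternatives covered the unit, pseudocount, filter, scaling, spread, thresholds, replicate block and each left-out sample.

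Genes were named by rule. These were, per direction, the 8 opposite and 5 shared genes with the largest smaller change of both sexes and no overlap of groups. Added were the 3 genes with the lowest interaction p per sex and direction called in 1 sex, list members called or shared, 5 regulators and the markers. Of these, 1 shared gene is not reported here. Members and lists were chosen with earlier results of these data known.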

Additional observations from a re-analysis of the deposited data

Results flagged for a closer look

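The IUHG effect differed between female and male PGCs by the test of the difference itself, the interaction in limma, for 504 genes at E13.5 and for 271 genes at E16.5. At E13.5, 419 of them had effects of opposite sign in the sexes and 84 of the same sign, and for 59 both effects were called and opposite. The interaction that chose these genes is the difference between the effects, which favours opposite signs, so these counts are descriptions. Among the named genes that were down in females and up in males, this difference on the log2 scale was -5.75 for Stra8, -4.13 for Meiosin, -3.73 for Majin, -3.42 for M1ap, -3.04 for Cdhr1, -2.89 for Ppp1r1a, -2.68 for S100a16 and -2.43 for Dcxr. Among those that were up in females and down in males, it was 2.40 for Akap12, 2.29 for Myo10, 1.91 for Slc6a6, 1.74 for Pfkfb3, 1.67 for Snord78, 1.53 for Eif4a1, 1.34 for Tcl1 and 1.12 for G3bp1.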

How the results depend on the processing

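The counts depended on the settings. Over 279 results of named genes and 5297 alternative values, 703 lost the call and 74 gained it. None that was called in the main or the other setting changed its sign, while effects near 0 without a call did, as for the male change of Stk11 (-0.06 to 0.04). With FPKM, the female effect was called for 732 genes, and there were 112 opposite and 180 shared genes. Without a filter on low values the interaction count was 292, the female count 53, the male count 2959, the opposite count 13 and the shared count 4. Among genes with a mean of at least 5 TPM there were 96 opposite genes. Median-of-ratios scaling gave 709 female, 99 opposite and 158 shared calls, and quantile normalization 691, 89 and 159. Without a trend in the spread, 126 female, 18 opposite and 21 shared calls were made. Other thresholds gave 1567 interaction calls at an adjusted p under 0.05, 11 opposite and 3 shared genes with sex effects at an adjusted p under 0.01, and 14 opposite and 22 shared genes with changes above 1 in both sexes. With all PGC groups in 1 fit the interaction count was 1098. Sex effects from the 12-sample fit, which pools the spread of both sexes, gave 3814 female, 796 male and 195 shared calls, and 86 opposite genes of which 23 were among the 59. Elsewhere the cause of these moves was not tested.

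The share of higher genes among the interaction calls was 39.5%, 33.1% after median-of-ratios scaling and 39.3% after quantile normalization. It was 52.5% at an adjusted p under 0.05, 53.4% without E13.5F IUHG replicate 2, 48.7% with all PGC groups in 1 fit and 23% to 25% without single male samples. Of female calls 34.7% were higher, 52.1% with the replicate block, 61.1% in the 12-sample fit, 7.55% without a filter, 19% without a trend and 5.88% to 43% without single female samples. For opposite genes it was 16.9%, and 20.2% and 27% after the scalings. With the replicate number as a block, 766 female, 179 shared, 392 interaction and 81 opposite calls were made, 54 of them among the 59. Deviations of samples of equal number in paired groups correlated at -0.08 to 0.13. In 6 of 12 such comparisons the own number correlated best, replicate 3 in all 4 of its own, and whether the numbers mark pairs was not tested.

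For opposite genes in other samples, the E16.5 interaction count of 1 in the direction of E13.5 became 2 with a pseudocount of 0.1 and 0 without a filter, under both scalings, without a trend and with the block. The count of opposite genes with a sex difference in E16.5 controls was 50 of 59. The opposite genes themselves changed with the setting. The count became 90 of 112 with FPKM, 13 of 13 without a filter and 76 of 96 at a mean of 5 TPM. It was 80 of 99 and 77 of 89 under the scalings and 17 of 18 without a trend. The gonad count of 4, all lower, became 0 without a filter or without a trend, 12 at a mean of 5 TPM (9 lower), 8 and 7 under the scalings (7 and 5 lower) and 1 with the block, which was higher.

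Leaving out each sample in turn gave 176 to 1531 interaction calls, 17 to 1602 female, 3218 to 4064 male, 8 to 246 opposite and 0 to 336 shared calls. The counts of opposite genes elsewhere ran from 0 to 3 for the E16.5 interaction, from 8 to 204 for the E16.5 sex difference and from 0 to 15 for the gonads, the 15 being 10 higher and 5 lower. The highest values came without E13.5F IUHG replicate 3, apart from the male effect, which that sample does not enter. Without replicate 2 of that group there were 833 interaction, 179 female and 28 opposite calls, and without replicate 1 there were 559, 89 and 20. Without single male samples the interaction count was 176 to 209 and the opposite count 35 to 45. Depth limits genes near 1 TPM most, and read counts, from which this limit could be stated, were not used here.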

Other observations

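Genes changed in the same direction in both sexes but by different amounts numbered 17. The larger change was in females for Hey1, a target of Notch, at 1.55 in females and 0.39 in males, and for Socs2, an inhibitor of cytokine signals, at 1.46 and 0.43. Tdh, which codes for threonine dehydrogenase, an enzyme of embryonic stem cells, changed by 0.99 and 0.21. It was larger in males for Mogat2, of triglyceride synthesis, at 0.85 in females and 2.46 in males. These genes were chosen after their values were seen. Fos, an immediate early gene, was a shared fall, at -1.59 in females and -1.02 in males, and was also lower in whole IUHG gonads, at -2.19 (adjusted p = 0.028).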
